A study of Mus musculus with 15 samples.

Results

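The genes described are 7 protein-coding genes of glucocorticoid activation and response: Hsd11b1, Nr3c1, Nr3c2, Fkbp5, Tsc22d3, Sgk1 and Per1. They were taken by gene symbol from the 38561 gene identifiers counted in each library. The enzyme gene Hsd11b1 was picked partly because its counts rose steeply over these same libraries, so its levels are given as a description without a test. The other 6 were picked as receptors and as textbook targets of the hormone. All 7, and the lists of related genes, were chosen with earlier results of these data known. Shares of all genes are therefore given beside them as a description.

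RNA was sequenced from Purkinje cells (PCs) that had been cut out of the postnatal mouse cerebellum by laser capture, a method that excises chosen cells from a tissue section under a microscope. The 15 libraries span the first 3 postnatal weeks, 3 biological replicates for each of the days P0, P4, P8, P14 and P21. The mice were males of a strain spelled C56/BL6 in the sample labels and C57/BL6 in the methods, and no treatment is given for any group. The P0 libraries hold groups of adjoining PCs and all later ones individually excised cell bodies, so the mode of capture changed together with age between P0 and P4. In such pooled captures, fewer cells of a type and less RNA per cell cannot be told apart. Corticosterone was not measured, and the hour of collection is not given in the sources used here.

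Glucocorticoids, mainly corticosterone in mice, reach the brain from the adrenal gland, and the enzyme encoded by Hsd11b1 regenerates the active hormone from its inert keto form inside the cell. The active hormone binds the mineralocorticoid receptor (Nr3c2) with high affinity and the glucocorticoid receptor (Nr3c1) with lower affinity. Both are held by the Hsp90 chaperone machinery until hormone binds, and both then act as transcription factors at palindromic DNA elements. Fkbp5, Tsc22d3, Sgk1 and Per1 are classical genes that the activated receptor induces in many tissues, and Fkbp5 feeds back by lowering the receptor's affinity for the hormone.

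Total counts on genes ranged from 3409371 to 7814951 per library (median 5345170), so that 3 counts, the floor used for a gene without any count, stood for 0.384 to 0.880 CPM. CPM are counts scaled to library size, with TMM scaling where CPM are compared between days. The floor and the folds over it are without TMM scaling. RPKM are counts scaled to library size and to the summed exon length, without TMM scaling. They are used where genes are set against each other and for the levels of the described genes by library. PC markers were abundant at every day, and the summed CPM of Calb1, Itpr1, Pcp2, Pcp4, Car8 and Ppp1r17 went from 4549 to 6007 at P0 to 36886 to 46640 at P21. Ppp1r17 was close to 0 at P0, at 0.988 ± 0.525 CPM (SD, n = 3). The 8 astrocyte and Bergmann glia markers were also captured, with a sum of 4007 to 5627 CPM at P0, 8209 to 9825 at P8 and 3147 to 4747 at P21.

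**Figure D1:**
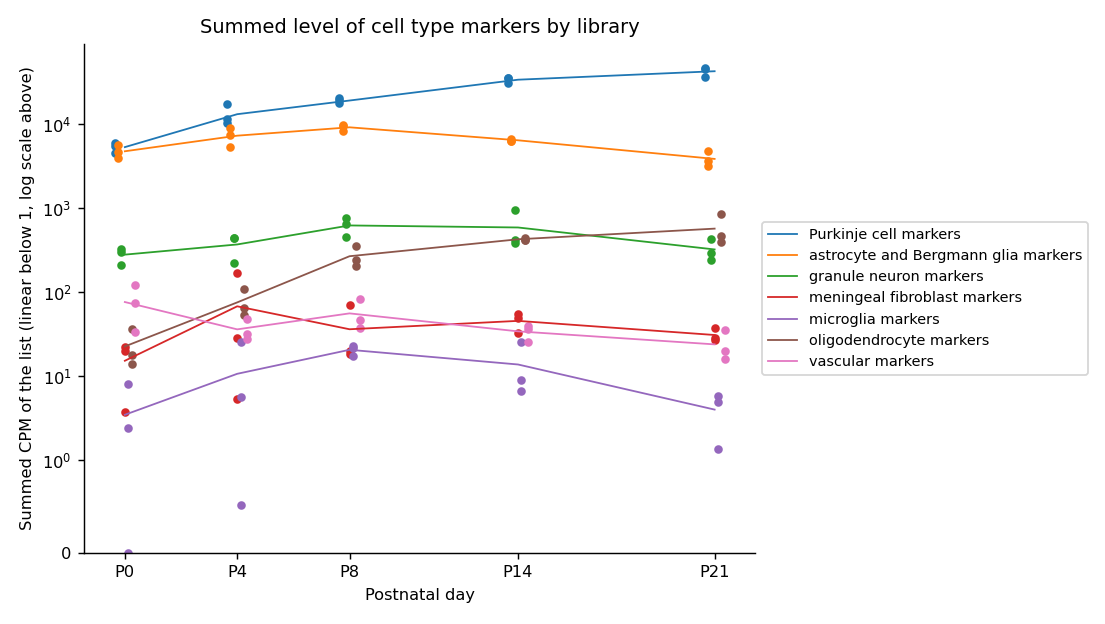
Summed CPM of each list of cell type markers (y axis, linear below 1 and logarithmic above) by postnatal day (x axis), with 1 point per library and lines through the means of 3 libraries. PC markers reached 36886 to 46640 CPM at P21, the sum of glial markers was highest at P8 on average, and oligodendrocyte markers went from 13.7 to 35.9 CPM at P0 to 396 to 845 CPM at P21.

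All 7 genes passed the filter on low counts that left 14293 genes for testing. Hsd11b1 and Nr3c2 had no count at P0 and passed through the later days alone. Levels changed places over the 3 weeks. At P0, Sgk1 (15.3 ± 7.16 RPKM, SD, n = 3) and Tsc22d3 (12.5 ± 1.61) had the highest mean levels, Nr3c1 (4.76 ± 2.14) and Fkbp5 (4.50 ± 1.67) followed, and Per1 stood at 1.01 ± 0.862. At P21, Tsc22d3 had the highest mean level at 71.5 ± 19.1 RPKM, followed by Hsd11b1 (10.5 ± 4.16), Nr3c1 (7.29 ± 2.63), Per1 (6.70 ± 2.51), Sgk1 (2.90 ± 2.93), Nr3c2 (2.04 ± 0.912) and Fkbp5 (0.792 ± 0.298).

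With postnatal day as a number, edgeR's quasi-likelihood test found that Tsc22d3 and Per1 rose and that Fkbp5 and Sgk1 fell, while Nr3c1 did not pass. Nr3c2 also passed upwards, but it entered the test through the days at which it is high, and it is left out of any reading against the shares of all genes given here. Of all genes tested, 12.1% rose and 14.1% fell in the same test, 26.2% together. The test for any change over the 5 days called Fkbp5 and Tsc22d3, and Nr3c2 beside them, where 19.3% of all genes tested were called. Between P0 and P21, Tsc22d3 and Per1 rose, as did Nr3c2, and Fkbp5 fell, where 12.2% of all genes rose and 10.6% fell, 22.8% together. The 3 libraries of P21 lay wholly above those of P0 for Tsc22d3 and Per1, as for 19.4% of all genes tested, and wholly below them for Fkbp5 and Sgk1, as for 18.2%. Between neighbouring days, the CPM of P4 lay wholly below P0 for Fkbp5 (6.04% of all genes). P8 lay wholly above P4 for Tsc22d3 (9.26%), and P14 wholly above P8 for Tsc22d3 (12.8%) and wholly below it for Fkbp5 (12.7%). P21 lay wholly above P14 for Per1 (7.56%). Hsd11b1 and Nr3c2 were also separate between P0 and P21, and Hsd11b1 between P4, P8 and P14, from which nothing is read, because Hsd11b1 was picked for its rise and both passed the filter through later days. Without the P0 libraries, whose capture differed, the day test called Tsc22d3 and Per1 alone among the 6. In that fit 1411 of 13854 genes tested rose and 1526 fell.

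**Figure D2:**
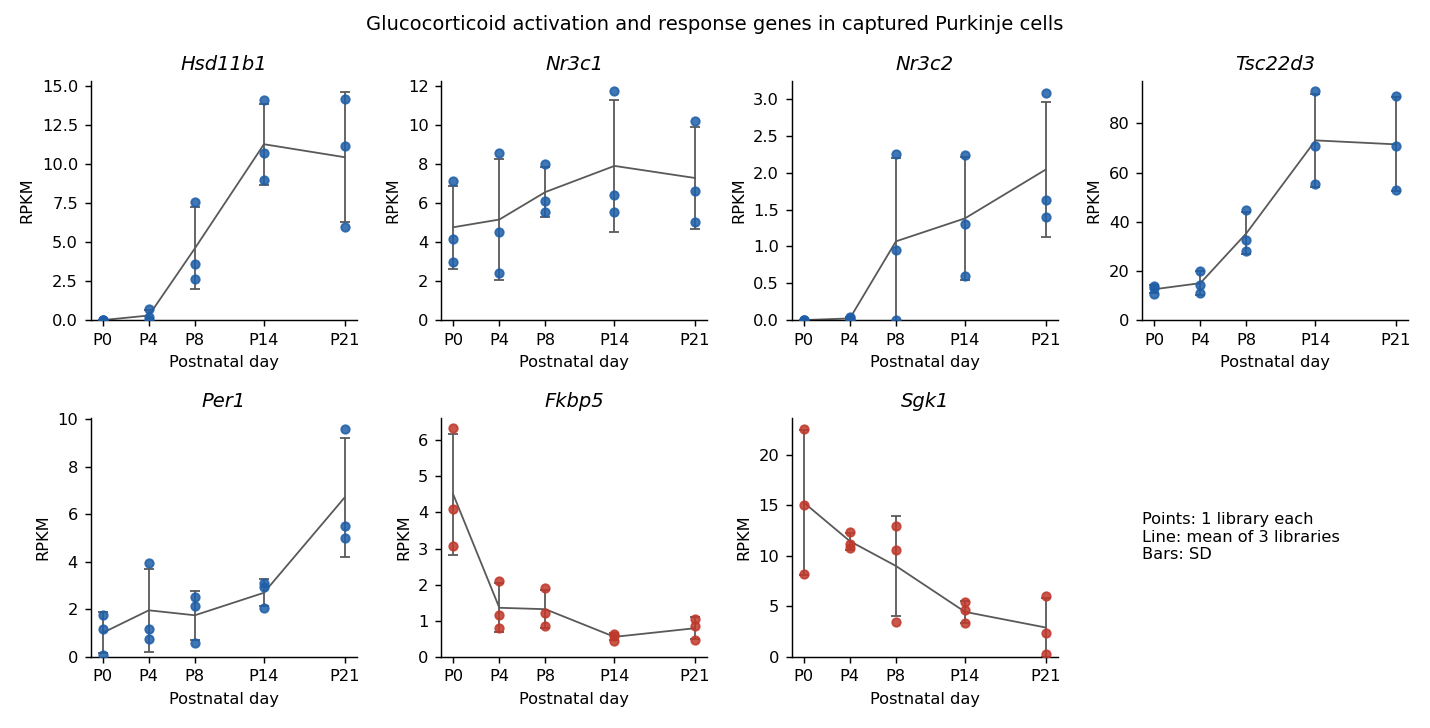
RPKM of each gene (y axis, a scale per panel) by postnatal day (x axis), with 1 point per library, lines through the means of 3 libraries and bars of 1 SD. The panels in blue are Hsd11b1, both receptors, Tsc22d3 and Per1, and those in red are Fkbp5 and Sgk1, which had lower levels at P21 than at P0 in every library.

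Hsd11b1 (ENSMUSG00000016194, chr1:193221634-193264075 on the minus strand of GRCm38) encodes the reductase that regenerates corticosterone. It had no count in the 3 libraries of P0. At P4 it had 3, 0 and 16 counts, or 0.185, 0 and 0.699 RPKM, in the order of the replicates. At P8 the levels were 7.59, 2.62 and 3.61 RPKM. Every P8 library thus lay above every P4 library. The levels were 10.8, 9.02 and 14.1 RPKM at P14 and 6.0, 14.2 and 11.1 RPKM at P21. Every P14 library lay above every P8 library, P14 and P21 overlapped, and P21 also overlapped with P8. Set against a floor of 3 counts per P0 library, mean levels were at least 29.5-fold higher at P8, at least 72.4-fold higher at P14 and at least 67.1-fold higher at P21. The mean log2 CPM was 8.97 higher at P21 than at P0, a value that depends on the prior count of 0.5 because of the zeros. The gene lies within Lamb3 on the opposite strand without sharing exon bases, and Lamb3 had 28 counts in all 15 libraries together.

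The course of Hsd11b1 was most like those of Atp2a3 (Pearson r = 0.973 of log2 CPM over the 15 libraries), a calcium pump of the endoplasmic reticulum, Hr (0.971), Adprhl1 (0.971), Omg (0.971) and Hhatl (0.968), among the 12544 protein-coding genes searched. The libraries share their ages and depths, and these values are given as a description. Oligodendrocyte markers moved the same way as Hsd11b1, Nr3c2, Tsc22d3 and Per1: the 5 markers summed to 13.7 to 35.9 CPM at P0, with Mag and Mobp at 0, and to 396 to 845 CPM at P21, and their part in these results was not tested. The 6 PC markers moved the same way too. Each was wholly higher at P21 than at P0, as were 19.4% of all genes tested. The 8 glial markers moved in different directions between P8 and P21, with 4 wholly lower, among them Fabp7 (4662 ± 292 to 186 ± 64.2 CPM, SD, n = 3), 2 wholly higher, Slc1a2 (330 ± 51.3 to 491 ± 73.3 CPM) and Hopx (89.1 ± 19.1 to 144 ± 31.4 CPM), and 2 overlapping. Their part in the course of Hsd11b1 was not tested either.

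The direct partners of the enzyme were scarce. H6pd, which supplies the reductase with its cofactor NADPH in the endoplasmic reticulum, had 277 counts over the 15 libraries. Its mean went from 0.132 ± 0.229 CPM at P0 over 4.94 ± 8.34 (P4), 2.93 ± 2.59 (P8) and 3.54 ± 1.29 (P14) to 5.94 ± 2.19 at P21 (SD, n = 3). Its slope was 0.09 ± 0.081 log2 units per day (SE, edgeR, adjusted p = 0.454), while limma-voom gave 0.21 (adjusted p = 0.00809). Hsd11b2, the enzyme that inactivates corticosterone, had 66 counts in all, did not pass the filter, and had no count in any library of P14 or P21. These were the days at which Hsd11b1 was highest. Hsd11b2 also had no count in replicate 3 of P0, replicates 1 and 2 of P4, and replicates 1 and 3 of P8. Its zeros at P14 and P21 are therefore given as a description. Of the 18 genes listed for steroid supply and clearance, 9 had no count in any library. Among them were Cyp11b1 and Cyp21a1 of adrenal steroid synthesis, and Cyp17a1, another gene of steroid synthesis. Serpina6, which encodes the plasma carrier of corticosterone, and Mc2r, the receptor of adrenocorticotropin, were also among them. The 7 genes tested gave 0 calls by edgeR in either direction (1 at an unadjusted p below 0.05), with a median slope of -0.04 log2 units per day against -0.01 over all genes tested. DESeq2 called a negative slope of Cyp11a1 (-0.37, adjusted p = 0.0407), a gene with 0 counts at P0, P14 and P21 and means of 5.66 CPM at P4 and 1.27 CPM at P8, while limma-voom gave -0.10 (adjusted p = 0.438).

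Nr3c1 (ENSMUSG00000024431, chr18:39410545-39519421, minus strand), the glucocorticoid receptor, was present in every library. It had 7.14, 4.18 and 2.98 RPKM at P0, 8.55, 4.51 and 2.42 at P4, and 6.13, 5.55 and 8.03 at P8. The levels were 5.55, 11.8 and 6.40 RPKM at P14 and 10.2, 6.63 and 5.05 at P21. Neighbouring days overlapped throughout, also in the order of their means (P14, P21, P8, P4, P0), and replicates of a day differed by as much as the days did. Its slope was 0.05 ± 0.019 log2 units per day (SE, edgeR, adjusted p = 0.0631), and its difference between P21 and P0 was 0.96 ± 0.47 log2 units (adjusted p = 0.161). This call rested on single libraries: the slope was 0.06 and passed without P0 replicate 1 (adjusted p = 0.0427), P4 replicate 1 (adjusted p = 0.0412) or P21 replicate 3 (adjusted p = 0.0378), and DESeq2 also called it (0.05, adjusted p = 0.0461). The courses most like it were those of Smad9 (r = 0.877 over 15 libraries), Cc2d2a (0.848) and Foxo3 (0.842).

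Nr3c2 (ENSMUSG00000031618, chr8:76899442-77245012, plus strand), the mineralocorticoid receptor, was not detected at P0, with 0 counts in each of the 3 libraries, and had 0, 2 and 1 counts at P4. The levels were 0.950, 0 and 2.25 RPKM at P8, 1.30, 0.592 and 2.25 at P14, and 1.40, 3.09 and 1.63 at P21. Replicate 2 of P8 thus had no count, although replicates 1 and 3 had 29 and 78. Every library of P14 and P21 lay above every library of P0 and P4, while neighbouring days from P8 onwards overlapped. Nr3c2 rose at 0.33 ± 0.098 log2 units per day (SE, edgeR, adjusted p = 0.0175), a fitted value that depends on the prior count because of the zeros. Since the gene passed the filter through the days at which it is high, this call is given as a description of the course. Against the floor of 3 counts per P0 library the mean level was at least 10.4-fold higher at P8, at least 13.5-fold higher at P14 and at least 19.9-fold higher at P21. Without the P0 libraries the slope was 0.22 (adjusted p = 0.123). Its largest step, P4 to P8, was 5.21 ± 1.62 log2 units (SE, edgeR, adjusted p = 0.194), and DESeq2, which called it, gave 5.41 (adjusted p = 0.0241). An antisense gene, Gm10649, shares 247 exon bases with Nr3c2 and had 181 counts over all libraries, and without strand, reads from these bases cannot be told apart.

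Whether the courses of both receptors differ from each other was not tested. At P0 and P4, where Nr3c2 had at most 2 counts, no ratio of Nr3c1 to Nr3c2 is given. In RPKM the ratio was 3.56 to 6.45 in the 2 libraries of P8 with any Nr3c2 count, 2.85 to 19.9 at P14 and 2.15 to 7.26 at P21. Nr3c1 was the higher of the pair in every library. The courses most like that of Nr3c2 were those of Slco1a4 (r = 0.956 over 15 libraries), a transporter of organic anions, Ccdc13 (0.956) and Acot5 (0.943).

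Both receptors are held by chaperones and recruit coregulators, and this list of 18 genes, all tested, held 5 genes that rose and 1 that fell, with a median slope of 0.01 log2 units per day. Of all genes tested, 12.1% rose and 14.1% fell. The list was chosen with earlier results of these data known, so its counts are given as a description. The coactivator Ncoa1 rose from 133 ± 19.0 CPM at P0 to 474 ± 33.4 CPM at P21 (slope 0.09 ± 0.0086, SE, adjusted p = 4.27e-07). The chaperones Hsp90aa1 (0.04 log2 units per day, adjusted p = 5.31e-04) and Hsp90ab1 (0.02, adjusted p = 0.022), Hspa8, the constitutive heat shock cognate protein (0.04, adjusted p = 0.0103), and Stip1, which links chaperones to each other (0.04, adjusted p = 0.0172), rose by less. The coactivator Ncoa3 fell, from 72.4 ± 34.6 CPM to 27.8 ± 1.80 CPM (slope -0.07, adjusted p = 0.00513). Without P21 replicate 3, Ncoa1 and Hsp90aa1 were the 2 genes of the list that still passed upwards.

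The DNA elements of the 4 response genes were looked for in RefSeq windows of GRCm38.p6 that run from 250 bases before to 50 bases after each annotated start. The table held 14 windows for 6 of the genes, none of Nr3c1 being used here. The palindromic glucocorticoid response element, searched on both strands as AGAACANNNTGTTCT, was in 3 of 32544 windows (0.00922%), and 1 of these was a start of Sgk1 (the others belonged to Acnat2 and Gm35041). Its half-site, AGAACA, was in 18.9% of all windows and in 4 of the 14, of which 3 belonged to Sgk1 and 1 to Tsc22d3. Each full element contains half-sites, so these counts overlap. The E-box CACGTG, the element that clock factors bind, was in 7.17% of all windows and in 3 of the 14, at Per1, Fkbp5 and Sgk1. The stretches around a match are printed here for the 4 genes, 5′ to 3′ on the gene's strand, with the match in capitals, to set the elements beside the courses that follow. They lie at chr10:21993661-21993760 (plus strand, Sgk1, element at -189 to -175 from the start), chrX:140600657-140600747 (minus strand, Tsc22d3, half-site at -185 to -180), chr11:69098743-69098833 (plus strand, Per1, E-box at -166 to -161) and chr17:28486268-28486358 (minus strand, Fkbp5, E-box at -169 to -164).
Sgk1, palindromic element: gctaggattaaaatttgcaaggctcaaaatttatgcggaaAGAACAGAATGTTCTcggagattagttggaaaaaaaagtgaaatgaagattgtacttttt
Tsc22d3, half-site: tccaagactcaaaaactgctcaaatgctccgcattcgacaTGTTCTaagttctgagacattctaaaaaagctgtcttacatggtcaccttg
Per1, E-box: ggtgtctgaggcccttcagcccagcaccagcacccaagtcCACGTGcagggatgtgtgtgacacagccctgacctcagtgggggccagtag
Fkbp5, E-box: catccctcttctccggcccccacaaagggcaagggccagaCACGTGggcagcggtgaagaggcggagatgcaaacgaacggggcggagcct

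A match describes the letters and not a bound site, and the counts per gene do not say which start was used. Sgk1 has 6 windows, Tsc22d3 has 3, Per1 has 2, and Fkbp5, Nr3c2 and Hsd11b1 have 1 each, so genes with more annotated starts had more letters to search. The windows of Hsd11b1 and Nr3c2 held none of the 3 motifs.

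Tsc22d3 (ENSMUSG00000031431, chrX:140539528-140600659, minus strand) encodes the glucocorticoid-induced leucine zipper, a protein that restrains inflammatory transcription factors. It had 10.8, 13.9 and 13 RPKM at P0 and 14.1, 10.8 and 20.2 at P4. The levels were 32.7, 28.3 and 45 RPKM at P8, 55.4, 70.7 and 93.1 at P14, and 52.7, 70.7 and 90.9 at P21. P0 and P4 overlapped, P8 lay wholly above P4, P21 and P14 lay wholly above P8, and P14 and P21 overlapped. Tsc22d3 rose at 0.16 ± 0.018 log2 units per day (SE, edgeR, adjusted p = 2.97e-06) and by 2.86 ± 0.29 log2 units between P0 and P21 (adjusted p = 1.96e-06). Without the P0 libraries the slope was 0.15 (adjusted p = 3.85e-04).

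The called steps of Tsc22d3 lay between P4 and P14. It rose by 1.26 ± 0.27 log2 units from P4 to P8 (SE, edgeR, adjusted p = 0.0306), a step at which 1.13% of all genes tested were called, and by 1.2 ± 0.27 from P8 to P14 (adjusted p = 0.0244), with 2.67% of all genes called. From P14 to P21 the difference was 0.07 ± 0.26 (adjusted p = 1). No other gene of the 6 passed at a single step by edgeR: 0 were called from P0 to P4 (1 at an unadjusted p below 0.05, 1.97% of all genes called) and 0 from P14 to P21 (0 at an unadjusted p below 0.05, 0.329% of all genes called), and DESeq2 and limma-voom also gave 0 at these steps. The step calls were fragile. The P4 to P8 call was lost without P4 replicate 1 (adjusted p = 0.112), P4 replicate 2 (0.112), P8 replicate 1 (0.0834), P8 replicate 2 (0.0525), P8 replicate 3 (0.187) or P14 replicate 2 (0.0506). The P8 to P14 call was lost without P8 replicate 1 (adjusted p = 0.113), P8 replicate 2 (0.120), P14 replicate 2 (0.0580) or P14 replicate 3 (0.151). Limma-voom called neither step (adjusted p = 0.123 and 0.0933). The steps themselves stayed between 0.99 and 1.49 log2 units with a library left out. The courses most like it were those of Dgkz (r = 0.972 over 15 libraries), a diacylglycerol kinase, Got1 (0.969), an aspartate aminotransferase, and Tex261 (0.966).

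Fkbp5 (ENSMUSG00000024222, chr17:28399094-28517527, minus strand) is the cochaperone whose transcript is a standard readout of receptor activity. It went the other way. It had 6.33, 3.06 and 4.10 RPKM at P0 and 2.11, 1.16 and 0.804 at P4. The levels were 0.852, 1.90 and 1.21 RPKM at P8, 0.588, 0.443 and 0.626 at P14, and 1.05, 0.855 and 0.467 at P21. Each P0 library lay above each library of the later days, whereas the neighbours in the order P4, P8, P21 and P14 overlapped. Fkbp5 fell with a slope of -0.10 ± 0.027 log2 units per day (SE, edgeR, adjusted p = 0.0112), and its difference between P21 and P0 was -2.15 ± 0.62 log2 units (adjusted p = 0.0197).

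The fall of Fkbp5 rested on P0. Its largest step was P0 to P4, at -1.64 ± 0.61 log2 units (SE, edgeR, adjusted p = 0.208), and without the P0 libraries the slope was -0.04 (adjusted p = 0.496). The difference between P21 and P0 no longer passed without P0 replicate 1 (-1.85, adjusted p = 0.077), P21 replicate 2 (-2.23, adjusted p = 0.0553) or P21 replicate 3 (-1.87, adjusted p = 0.081). Since P0 alone was captured as clusters, age and capture cannot be told apart for this step. The 3 vascular markers summed to 33.5 to 121 CPM at P0 and to 16.0 to 35.4 CPM at P21, ranges that overlapped. Cldn5 (mean 31.3 CPM at P0, 6.16 at P21) and Pecam1 (34.6, 1.57) were wholly lower at P21, as for 18.2% of all genes tested. Flt1 had a higher mean at P21 (9.90, 16.0), with overlap. Their part in the result was not tested. The courses most like it were those of Dzip1 (r = 0.888 over 15 libraries), Gpbp1 (0.876) and Akap9 (0.859).

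Fkbp4, the close relative of Fkbp5 that takes its place on the receptor complex after hormone binding, had 155 ± 25.8 CPM at P0 and 118 ± 6.72 CPM at P21 (slope -0.0012 ± 0.015 log2 units per day, SE, edgeR, adjusted p = 0.967). The ratio of Fkbp4 to Fkbp5 in RPKM was 9.95 to 23.5 at P0, 68.3 to 99.0 at P14 and 33.5 to 79.7 at P21. P14 and P21 lay wholly above P0. The ratio of Tsc22d3 to Fkbp5, both targets of the same receptor, went from 1.70 to 4.55 at P0 to 50.04 to 195 at P21, again without overlap.

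Sgk1 (ENSMUSG00000019970, chr10:21882184-21999903, plus strand), the serum- and glucocorticoid-regulated kinase that acts on ion channels and transporters, is the gene with the palindromic element shown above. It had 22.5, 8.23 and 15 RPKM at P0, 11.1, 10.8 and 12.4 at P4, and 13, 10.5 and 3.47 at P8. The levels were 5.40, 4.65 and 3.30 RPKM at P14 and 2.39, 0.257 and 6.06 at P21. Every P21 library lay below every P0 library, but each pair of neighbouring days overlapped, and the 3 libraries of P21 had 40, 7 and 208 counts. Sgk1 fell with a slope of -0.10 ± 0.029 log2 units per day (SE, edgeR, adjusted p = 0.0136), without a called step, the largest being -0.86 ± 0.71 log2 units from P8 to P14 (adjusted p = 0.713).

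Between P21 and P0 the difference of Sgk1 was -2.05 ± 0.73 log2 units (SE, edgeR, adjusted p = 0.0543). It passed without P0 replicate 2 (-2.38, adjusted p = 0.0409), P8 replicate 3 (-2.08, adjusted p = 0.0462) or P21 replicate 3 (-3.22, adjusted p = 0.0114), and by DESeq2 on all libraries (-2.10, adjusted p = 0.0116). Without the P0 libraries its slope was -0.10 (adjusted p = 0.0632), as steep as with them. The course of Sgk1 was most like those of Wnt7b (r = 0.926 over 15 libraries), a secreted signalling protein, Cmtm3 (0.920) and Trim59 (0.919).

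Per1 (ENSMUSG00000020893, chr11:69095217-69109960, plus strand) is a core repressor of the circadian clock that glucocorticoids also induce directly. It had 0.0758, 1.19 and 1.77 RPKM at P0, 3.97, 0.750 and 1.15 at P4, and 0.565, 2.15 and 2.53 at P8. The levels were 2.94, 3.11 and 2.04 RPKM at P14 and 5.52, 9.59 and 4.99 at P21. Every P21 library lay above every library of the earlier days, P14 lay wholly above P0, and the other pairs of earlier days overlapped. Per1 rose at 0.13 ± 0.033 log2 units per day (SE, edgeR, adjusted p = 0.00531), also without the P0 libraries (0.13, adjusted p = 0.0112).

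Between P0 and P21, Per1 rose by 3.09 ± 0.93 log2 units (SE, edgeR, adjusted p = 0.024), a call that was lost without P0 replicate 2 (3.20, adjusted p = 0.0543) or P21 replicate 2 (2.72, adjusted p = 0.0887). The last step, P14 to P21, was its largest at 1.42 ± 0.87 log2 units (adjusted p = 0.852). The courses most like it were those of Ralgapb (r = 0.942 over 15 libraries), Relt (0.938) and Rnf130 (0.910).

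The other clock genes were mostly higher with age as well. Of 15 listed, all tested, 8 rose and 0 fell, with a median slope of 0.13 log2 units per day, and none had a slope below 0, while 12.1% of all genes tested rose and 14.1% fell. Dbp, an output gene of the clock, rose from 0.811 ± 1.40 CPM at P0 to 20.6 ± 4.16 CPM at P21 (slope 0.25, edgeR, adjusted p = 0.0233). With a median of 0 CPM at P0 and P4, Dbp passed the filter through later days, and its call is given as a description of the course. The count of 8 and the median slope include Dbp, and neither is read against the values over all genes. Hlf, a related output factor, rose from 5.68 ± 5.11 to 201 ± 24.0 CPM (0.23, adjusted p = 0.00142), and the clock repressors Nr1d1 (0.18, adjusted p = 0.0071) and Ciart (0.18, adjusted p = 3.65e-04) rose from 6.73 ± 10.5 to 102 ± 30.5 CPM and from 13.8 ± 0.655 to 113 ± 61.7 CPM. Without the P0 libraries 3 passed: Hlf (0.15), Nr1d1 (0.12) and Ciart (0.22). Of all 13854 genes tested in that fit, 1411 rose and 1526 fell. Since the hour of collection is not known, time of day and age cannot be told apart for Per1 and these genes.

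**Figure D3:**
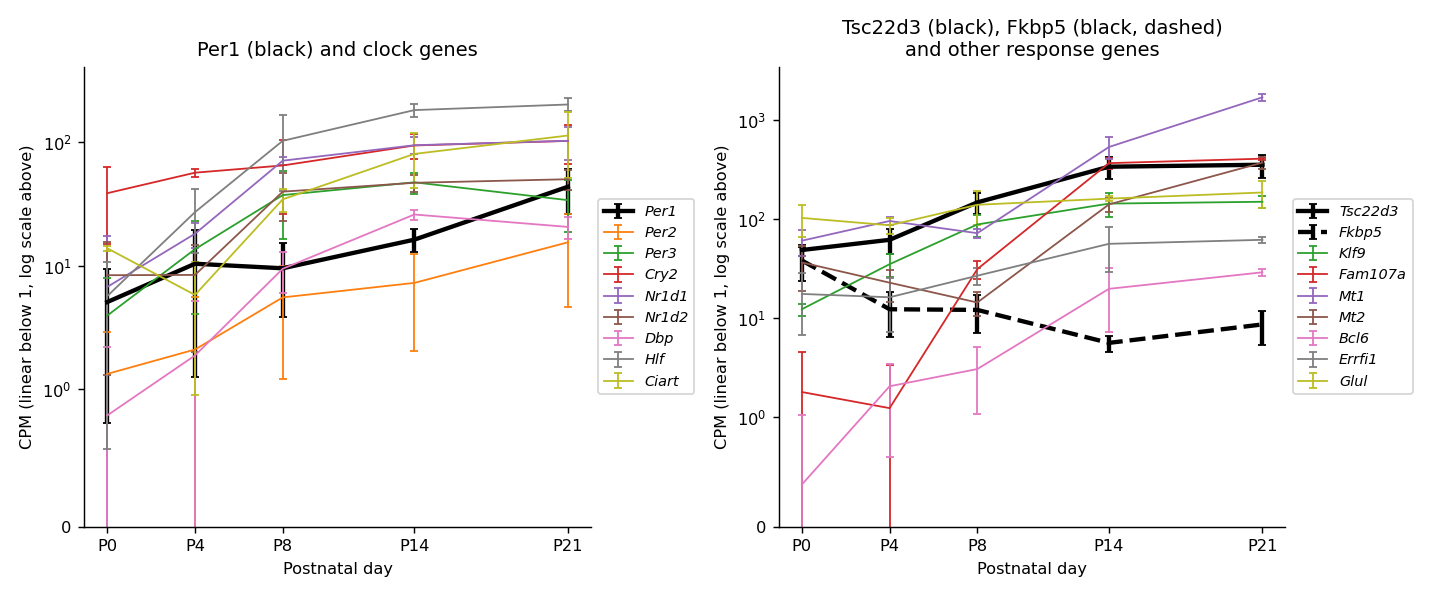
CPM after TMM scaling (y axis, linear below 1 and logarithmic above) by postnatal day (x axis), as means of 3 libraries with bars of 1 SD. Left, Per1 (black) lay below Hlf, Nr1d1 and Ciart at P21. Right, Tsc22d3 (black) was higher at P21 than at P0, and Fkbp5 (black, dashed) was lower. The other response genes drawn were all called upwards in the day test and were higher at P21. List genes without such a call are not drawn. Among them, Angptl4 and Mfsd2a had lower means at P21 (0.212 and 0.874 CPM) than at P0 (12.1 and 13.8 CPM).

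Further genes that glucocorticoids induce in other tissues were read for comparison with Tsc22d3, Fkbp5, Sgk1 and Per1. Of 24 listed, 20 were tested, and in edgeR's day test 11 rose and 0 fell (1 lower at an unadjusted p below 0.05). Slopes in this list had their median at 0.11 log2 units per day, against -0.01 over all genes tested. In the same test 12.1% of all genes rose and 14.1% fell. Between P0 and P21, edgeR called 8 genes of the list higher and 1 lower, where 12.2% of all genes rose and 10.6% fell. The lower one was Angptl4 (-5.65 ± 1.90 log2 units, SE, adjusted p = 0.0421). The 8 include Zbtb16 (adjusted p = 0.0225) and Mertk, without any count at P0, and Bcl6 and Fam107a, with medians of at most 0.203 CPM there. These genes passed the filter through later days, so the count of 8 is not read against the shares of all genes. The steepest slope was that of Fam107a, an actin-binding protein induced by stress, which went from 1.79 ± 2.75 CPM at P0 and 31.2 ± 6.49 at P8 to 368 ± 48.8 at P14 and 409 ± 10.9 at P21 (slope 0.47 ± 0.069, SE, adjusted p = 5.20e-05). Bcl6, a transcriptional repressor, rose from 0.385 ± 0.666 to 29.0 ± 2.63 CPM (0.29, adjusted p = 2.76e-04). Arrdc2, an arrestin-domain protein (0.28, adjusted p = 0.0118), and Mertk, a receptor for the uptake of dying cells that glia express (0.27, adjusted p = 0.00731), rose from counts at or near 0 to 8.03 ± 3.34 and 24.3 ± 20.8 CPM. Fam107a, Bcl6, Arrdc2, Mertk and Sult1a1, all called upwards, had median levels of at most 0.203 CPM at P0. They passed the filter through later days, as Nr3c2 did, so their calls are given as a description of the course. The count of 11 and the median slope include these genes, and neither is read against the values over all genes. Without the P0 libraries 10 rose: Arrdc2 (adjusted p = 0.0585), Sult1a1 (0.0562) and Nfkbia (0.171) no longer passed, while Pdk4 (0.0383) and Hif3a (0.0451) did. Of all 13854 genes tested without P0, 1411 rose and 1526 fell. Angptl4 fell in that fit (-0.33, adjusted p = 0.0411), the same gene that DESeq2 called lower on all libraries (-0.23, adjusted p = 0.00377).

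The metallothionein genes Mt1 and Mt2 and the zinc finger factor Klf9 were among the genes that rose, and they are named here after their values were seen. Mt1 went from 60.5 ± 17.7 CPM at P0 and 72.1 ± 7.83 at P8 to 536 ± 134 at P14 and 1706 ± 155 at P21 (slope 0.24, edgeR, adjusted p = 5.26e-08). Klf9 went from 12.3 ± 1.71 CPM at P0 to 88.4 ± 21.9 at P8 and 150 ± 20.8 at P21 (0.17, adjusted p = 7.07e-05). Metallothioneins also respond to metals, and Mt1, Mt2, Mertk and Glul are well expressed in astrocytes. Of the 8 glial markers, 4 were wholly higher at P21 than at P0, as for 19.4% of all genes tested. They were Slc1a2 (133 to 233 CPM at P0, 427 to 571 at P21), Slc1a3 (1292 to 1689, 2019 to 3081), Aqp4 (40.2 to 111, 152 to 272) and Hopx (6.55 to 17.2, 116 to 178). Their courses between these days differed. The highest mean was at P21 for Slc1a2 (491 CPM), at P14 for Slc1a3 (3522 CPM) and Hopx (169 CPM), and at P8 for Aqp4 (988 CPM). Fabp7 and Aldh1l1 were wholly lower at P21 than at P0, as for 18.2% of all genes tested. The part of glial RNA in these results was not tested.

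**Figure D4:**
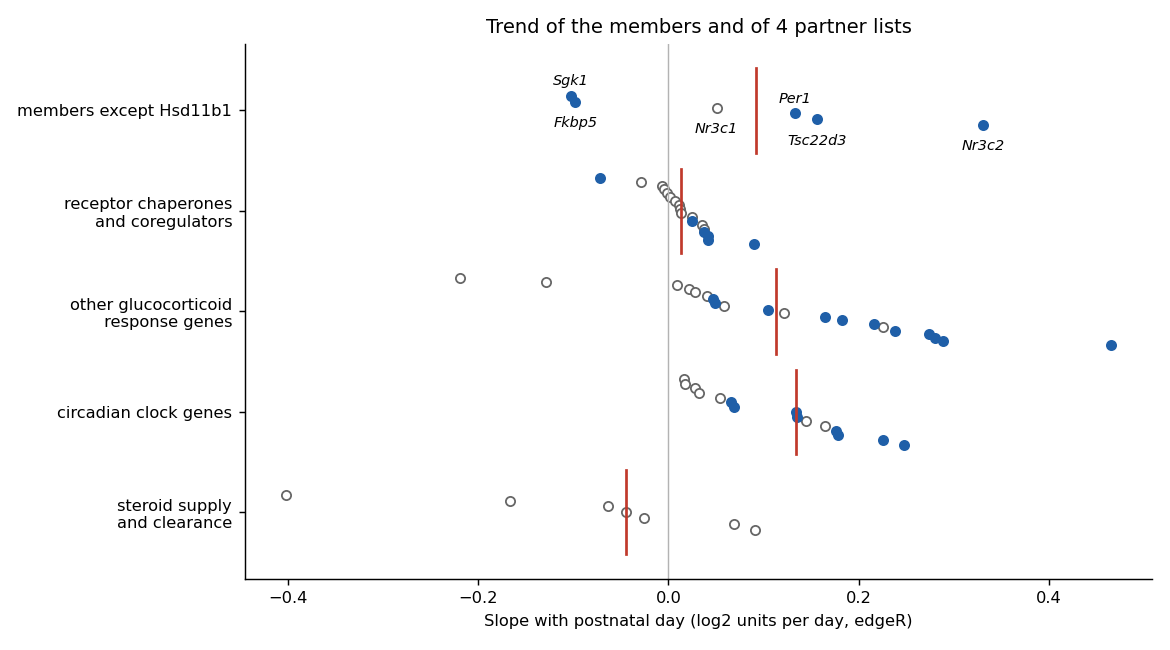
Slope of each tested gene with postnatal day (x axis, log2 units per day, edgeR) for the genes described other than Hsd11b1 and for 4 lists of partners (y axis). Filled points passed at an adjusted p of 0.05, open points did not, and red bars mark medians, which were 0.01 for chaperones and coregulators, 0.11 for other response genes, 0.13 for clock genes and -0.04 for steroid supply and clearance.

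Whether libraries of the same day were high or low in several response genes together was examined on deviations from the day's mean of log2 CPM. None of the 6 pairs among Fkbp5, Tsc22d3, Sgk1 and Per1 passed. Tsc22d3 and Fkbp5 had r = -0.543 over the 15 libraries (exact permutation within days, two-sided, p = 0.0931, adjusted p = 0.279 over 6 pairs, Spearman rho = -0.500, exact p = 0.135, adjusted p = 0.361), and r = -0.496 without the 2 libraries farthest from the median. Sgk1 and Per1 had r = -0.421 (exact p = 0.0711, adjusted p = 0.279, rho = -0.550, exact p = 0.0550, adjusted p = 0.330), and r = -0.523 without the 2 farthest libraries. The other 4 pairs had r between -0.213 and 0.195. A shared rise or fall of the 4 response genes within a day was not detected with 3 libraries per day. What size of correlation could have been detected was not assessed.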

How the data were processed

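The data are 15 RNA libraries of laser-captured PCs, 3 for each of 5 postnatal days. Per the submitters' processing notes and the methods, the authors trimmed reads with cutadapt 1.2.1, aligned them to mm10 (GRCm38.p1) with GSNAP, kept unique alignments and tallied them over Ensembl genes with HTSeq 0.5.3p9 in intersection-strict mode. The deposited tables hold raw counts that were not normalized. The annotation release and strand setting of the counting are not given in the sources used here. Each file held 38561 gene identifiers, of which 36723 are in GENCODE M21, and 5 tally lines (18.2 to 31.0% of all counts) that were kept out of library sizes. A kit for very small amounts of RNA was used, and reads without molecular identifiers are not independent molecules, so floors cover counting error only. Counts of replicates differed by more than sampling noise (chi-square 18.4 to 56.5 per gene), and each library was kept as a separate sample.

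Samples were grouped by the day in their titles. Symbols, positions and exon lengths came from GENCODE M21 and promoter windows from RefSeq (GRCm38.p6). edgeR 4.0.16 in R 4.3.3 (filterByExpr by day, TMM, quasi-likelihood F test, Benjamini-Hochberg over all 14293 genes, threshold 0.05) tested day as a number and day as a factor, for any change, neighbouring days and P21 against P0. Standard errors were derived from the F statistic. Log2 CPM used a prior count of 0.5. Correlations within days used all 7776 arrangements. The named list genes are those called in the day test, up to 4 each way by slope, plus Hsd11b2, H6pd, Hsp90aa1, Hsp90ab1 and Fkbp4, and the genes of most similar course. Genes and lists were chosen with earlier results of these data known. Alternatives were DESeq2 1.42.0, limma-voom (limma 3.58.1), RLE size factors, no filter, a replicate block, a log scale of time, no P0 and each library left out. The scripts were tested on simulated data. Python 3.11.15 with pandas 2.3.3 and matplotlib 3.10.9 served for tables and figures.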

Additional observations from a re-analysis of the deposited data

How the results depend on the processing

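The spread between libraries and 3 libraries per day limit what could be called. The biological coefficient of variation was 0.757 in the day test, a value that also holds departures of the courses from a straight line. The floor of 3 counts touches Hsd11b1 and Nr3c2 at P0 and P4. The calls of Nr3c2, Fkbp5, Tsc22d3, Sgk1 and Per1 in the day test held under DESeq2, limma-voom, RLE size factors, no filter and every library left out.

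Called members from P4 to P8 went from 1 to 2 with DESeq2 (Nr3c2 added) and 0 with limma-voom, and from P8 to P14 from 1 to 0 with limma-voom, and members that fell between P0 and P21 from 1 to 2 (Sgk1 added) with DESeq2, limma-voom, RLE size factors and no filter. Leaving out single libraries gave 0 to 1, 0 to 1 and 0 to 2. Without P0, members that fell with day went from 2 to 0, clock genes that rose from 8 to 3, and steroid genes and other response genes that fell from 0 to 1 each, as with DESeq2. Steroid genes that rose went to 1 with limma-voom. Chaperones that rose went from 5 to 3 on a log scale of time. With a library left out these ranges were 0 to 1 for steroid genes in either direction, 2 to 5 for chaperones and 0 to 2 for response genes that fell.

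The r of Fkbp5 and Sgk1 (-0.162) turned to 0.154 on variance-stabilized values and 0.0684 without the 2 farthest libraries, and that of Fkbp5 and Per1 (0.0608) to -0.138 without the 2 farthest libraries. The P21 minus P0 difference of Hsd11b1 was 8.97 log2 units, 6.98 with a prior count of 2 and 9.97 with 0.25. The cause of these changes was not tested.

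Replicate numbers did not pair libraries: deviations of same-numbered libraries had a mean r of -0.0030, against 0.0015 for different numbers, and 7 of 15 libraries correlated best with their own number. With the replicate block 1723 genes rose and 1911 fell, against 1729 and 2021 without it, and no call of the 6 members in the day test changed (Nr3c1, slope 0.05, adjusted p = 0.0508).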
